A study of Mus musculus with 20 samples.

Results

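The mTOR pathway components described here were 51 genes listed by symbol for their place in the pathway, with earlier results of these data known and no threshold on measured values: the subunits of both mTOR complexes, the TSC, Rag, Ragulator and GATOR regulators, the Sestrins, the insulin and PI3K genes above them, and the kinases and translation factors below. All 51 of 51 were found among the 48795 genes of the count table, each once, and all 51 were among the 17313 genes with enough counts to be tested. The RNA came from the sensory-motor cortex of adult CD-1 mice, with 5 libraries in each of 4 groups. MIR (maternal inflammatory response) offspring were born to dams given 0.008 mg/kg of lipopolysaccharide (LPS) on gestation day 9, and control offspring to dams given saline. In each kind of offspring 5 mice received rapamycin, an inhibitor of mTOR complex 1, and 5 received its vehicle, DMSO, 2 hours before euthanasia, so that the groups were MIR rapamycin, MIR vehicle, control rapamycin and control vehicle. The litter of each mouse is not given in the labels, and each library was treated as an independent mouse. The paper lists fewer litters for sequencing than there are mice of either kind here. Some mice therefore shared a dam, which the tests do not take into account.

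mTOR is a kinase that works in 2 complexes. Complex 1, which contains Raptor (Rptor), drives protein synthesis and growth through S6 kinases and the eIF4E-binding proteins, and is switched on at the lysosome by Rheb and the Rag GTPases. Complex 2, which contains Rictor, phosphorylates AKT. Insulin and growth factor receptors act through IRS adaptors, PI3K and AKT to relieve the TSC brake on Rheb, while GATOR1, GATOR2 and the Sestrins pass on the supply of amino acids. Much of this control is by phosphorylation and protein binding, which RNA counts do not measure.

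A promoter was found in the RefSeq table for 43 members (58 promoters, GRCm38.p6), each window running from 250 bases before the start to 50 after it. The E-box CACGTG, searched on both strands, was present in 17.2% of member promoters and in 7.15% of all 32851 promoters. The 10 members with one were Eef2k, Eif4e, Irs1, Irs2, Lamtor1, Lamtor4, Rheb, Rragb, Rragc and Tbc1d7. Median GC content of the upstream 250 bases was 59.6% over member promoters and 52.4% over all promoters. Its part in the E-box share was not tested. The 250 bases before the start are shown for 2 Rag GTPases and 1 Ragulator subunit with an E-box, set in capitals, and for the outermost promoter of Prr5l, the one member called in a comparison, in which no E-box was found.
Rragb, chrX:153139708-153139957, plus strand: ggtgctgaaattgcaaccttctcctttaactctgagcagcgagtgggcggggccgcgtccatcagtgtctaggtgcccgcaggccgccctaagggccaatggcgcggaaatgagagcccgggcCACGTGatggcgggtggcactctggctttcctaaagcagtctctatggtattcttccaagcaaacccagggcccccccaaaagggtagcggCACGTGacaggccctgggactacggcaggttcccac
Rragc, chr4:123917183-123917432, plus strand: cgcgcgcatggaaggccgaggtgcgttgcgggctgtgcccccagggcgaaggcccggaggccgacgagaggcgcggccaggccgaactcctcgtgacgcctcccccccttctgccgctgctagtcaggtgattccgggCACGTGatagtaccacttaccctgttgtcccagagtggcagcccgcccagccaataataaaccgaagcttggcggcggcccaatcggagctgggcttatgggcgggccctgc
Lamtor1, chr7:101905587-101905836, plus strand: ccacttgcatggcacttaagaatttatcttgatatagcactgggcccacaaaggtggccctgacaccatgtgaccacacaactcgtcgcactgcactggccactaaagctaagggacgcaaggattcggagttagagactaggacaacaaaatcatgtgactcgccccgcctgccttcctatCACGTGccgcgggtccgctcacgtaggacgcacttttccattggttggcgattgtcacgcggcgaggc
Prr5l, chr2:101883028-101883277, minus strand: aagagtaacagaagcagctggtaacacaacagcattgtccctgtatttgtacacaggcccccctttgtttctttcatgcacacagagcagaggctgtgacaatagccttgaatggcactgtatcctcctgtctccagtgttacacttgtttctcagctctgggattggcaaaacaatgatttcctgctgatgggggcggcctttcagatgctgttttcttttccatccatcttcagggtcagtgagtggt
The glucocorticoid receptor half-site TGTTCT was in 5.17% of member promoters and 19% of all, and the FOXO motif GTAAACA in 6.9% and 3.65%. A match is a run of letters and not a measured binding site. In rapamycin against vehicle the 10 members with an E-box had a median log2 fold change of 0.04 in MIR offspring and 0.09 in control offspring, and the 33 matched members without one had 0.02 and 0.08.

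Libraries held 17.8 to 24.5 M counts. Several stood apart before any comparison. The summed level of 8 striatal markers was 3390 CPM (counts per M of the scaled library) in control vehicle 1 and 118 to 336 CPM in the other 19 libraries, and Slc17a7, the vesicular glutamate transporter of cortical excitatory neurons, was 12.3 CPM there and 656 CPM or more elsewhere, which goes against the cortex label. The summed level of 5 cerebellar markers was 2360 CPM in control vehicle 2, against at most 91.8 CPM in any other library, and that of 4 choroid plexus markers was 1240 CPM in control vehicle 3, against at most 39.6 CPM. Control vehicle 4 and 5 held 76.6 and 64.2 CPM of the cerebellar markers, against at most 59.8 CPM in the other groups. Of the choroid plexus markers they held 14.6 and 19.2 CPM, against 1.77 to 15.2 CPM. Fits without control vehicle 1, 2 and 3 keep control vehicle 4 and 5. Control rapamycin 1 deviated by base composition: relative to each gene's median library, the 4314 genes of lowest transcript GC content (up to 44.7%) sat at a median of -0.58 and the 4314 of highest (above 54.4%) at 0.35 on the log2 scale, while no other library passed 0.08 in either set. The 10 members in the low set sat at -0.44 and the 13 in the high set at 0.46. MIR vehicle 1 held the members at a median of -0.149, with the highest summed microglial markers, 511 CPM against 214 to 406 CPM elsewhere. Control rapamycin 1 held the highest value of 16 members and the lowest of 13, and control vehicle 1 the highest of 10 and the lowest of 10. The part of dissection and of base composition in the results was not tested. In bulk tissue fewer cells of a type and less RNA per cell cannot be told apart.

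**Figure D1:**
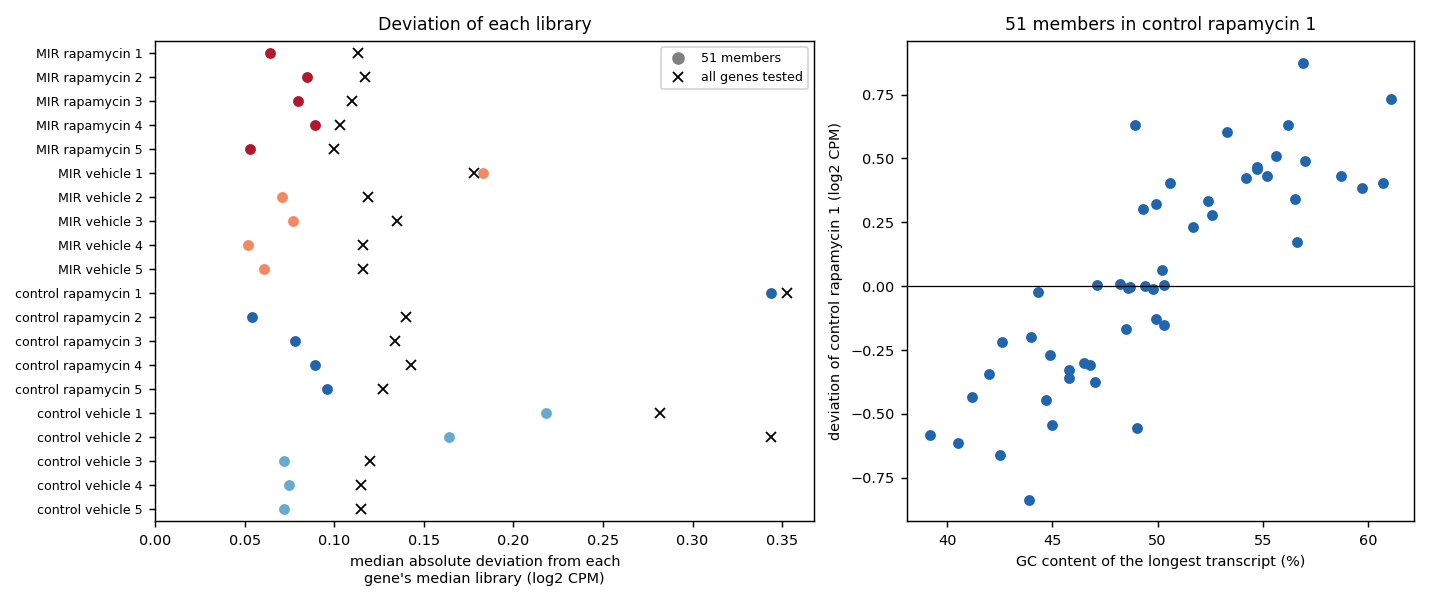
Left, the median absolute deviation of each of the 20 libraries from each gene's median library (log2 CPM), for the 51 members (circles, coloured by group) and all genes tested (crosses). Right, the deviation of each of the 51 members in control rapamycin 1 against the GC content of its longest transcript, and members deviated by 0.344 in that library, the most of any, and low-GC members sat below 0 and high-GC members above.

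The members were expressed throughout, from 2.25 CPM on average for Eif4ebp1, a brake on cap-dependent translation, to 244 CPM for Eif4b, a helicase cofactor of translation initiation. Per kilobase of exon the highest were Eif4b at 54.7, Rraga at 43.2 and Akt1 at 37.5 CPM per kb. Mtor itself stood at 15.4, Rptor at 7.32 and Rictor at 5.01 CPM per kb. Among paralogues, which share sequence and so may share reads, Eif4ebp2 was 4.86 ± 2.15 times Eif4ebp1, Akt1 4.99 ± 0.57 times Akt2 and Rheb 7.37 ± 2.33 times Rhebl1 in CPM per kb (SD over 20 libraries). Tsc2 was 1.17 ± 0.08 times its partner Tsc1 on that scale. The members varied little. Their median coefficient of variation over the 20 libraries was 11.3%, against 18.9% for all genes tested, and 36 of 51 were under 15%. Tsc1 was the steadiest, at 102 to 129 CPM, and Prr5l the least steady, at 4.91 to 25.9 CPM.

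Rapamycin against vehicle asked whether 2 hours of the inhibitor changed the RNA of its own pathway. In MIR offspring 0 of 51 members were called, which took an adjusted p below 0.05 and a log2 fold change beyond 0.5 either way (edgeR's quasi-likelihood test, Benjamini-Hochberg adjustment over 17313 genes), where 0.0173% of all genes were. Without regard to p-value, 37 members were higher and 14 lower under rapamycin. Their median log2 fold change was 0.0326, against -0.0037 for all genes. Leaving out single MIR libraries gave members' medians from 0.0166, without MIR vehicle 1, to 0.0477, without MIR vehicle 2. An unadjusted p under 0.05 was found for 8 members (15.7%, against 4.99% of all genes). With a covariate for immediate early genes, a list of neuronal activity genes, there were 3 (5.88%, against 6.34%). These genes summed to 1240 to 1700 CPM in MIR rapamycin and 1740 to 3200 CPM in MIR vehicle libraries. With a covariate for oligodendrocyte markers there were 8 (15.7%, against 5.48%). Without control vehicle 1, 2 and 3 there were 11 (21.6%, against 8.26%), and without control rapamycin 1 as well 16 (31.4%, against 12.9%). Without control vehicle 1 and control rapamycin 1 there were 13 (25.5%, against 8.9%). DESeq2 also called 0 of the 51 members, against 0.208% of all genes. In control offspring 1 of 51 was called, against 5.23% of all genes. There 33 members were higher and 18 lower, with a median log2 fold change of 0.0621 against -0.0347 for all genes, and 14 had an unadjusted p under 0.05 (27.5%, against 27.3%). With no limit on size 4 members passed, against 7.8% of all genes, Wdr24 and Sesn2 higher and Prr5l and Grb10 lower. Over both kinds of offspring the average effect called 1 member, Prr5l, against 1.42% of all genes, and 2 with no limit on size, against 2.48%.

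Prr5l, a subunit of mTOR complex 2, was the member called. It lies at chr2:101714285-101883027 on the minus strand (mm10), and 78 of its exon bases overlap Gm13905 on the other strand. It measured 6.53, 6.46, 6.39, 5.74 and 6.70 CPM in MIR rapamycin libraries, against 12.7, 9.26, 6.76, 16.3 and 7.56 CPM in MIR vehicle libraries. It measured 4.91, 7.40, 5.19, 9.5 and 5.22 CPM in control rapamycin libraries, against 25.9, 7.12, 12.6, 13.6 and 14.4 CPM in control vehicle libraries. The MIR groups did not overlap, while in controls 1 vehicle library, the one with cerebellar markers, lay among the rapamycin libraries. Prr5l fell by 1.19 ± 0.28 on the log2 scale in control offspring (SE, adjusted p = 0.0205, edgeR) and by 0.96 ± 0.20 on average (adjusted p = 0.0134). In MIR offspring the log2 fold change was -0.72 ± 0.28 and did not pass (adjusted p = 0.834).

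Markers of oligodendrocytes, the myelinating cells of the brain, were higher in control vehicle than in control rapamycin libraries by their median, but hardly differed between the MIR groups. The medians of their summed level were 4690 and 3120 CPM in these control groups, and 3060 CPM in MIR vehicle and 3040 CPM in MIR rapamycin libraries. The summed level of 6 of them was 2830 to 3580 CPM in MIR rapamycin libraries, against 2740 to 5500 CPM in MIR vehicle libraries, and 2840 to 4070 CPM in control rapamycin libraries, against 2470 to 9820 CPM in control vehicle libraries, the highest in control vehicle 1 where Prr5l was also highest. With the score of these markers as a covariate the log2 fold change of Prr5l in control offspring was -0.50 (adjusted p = 0.0512) and on average -0.50 (adjusted p = 0.0211), just short of the size limit, so that Prr5l was called in neither. Without control vehicle 1 it was -0.89 (adjusted p = 0.0382), and without control vehicle 1, 2 and 3 it was -1.12 (adjusted p = 0.0815), so that the call in control offspring was lost, while without these 3 the average effect kept its call (-0.92, adjusted p = 0.00994). The call in control offspring was also lost when only the 10 control libraries were fitted (-1.20, adjusted p = 0.147). Their part in the result was not tested.

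**Figure D2:**
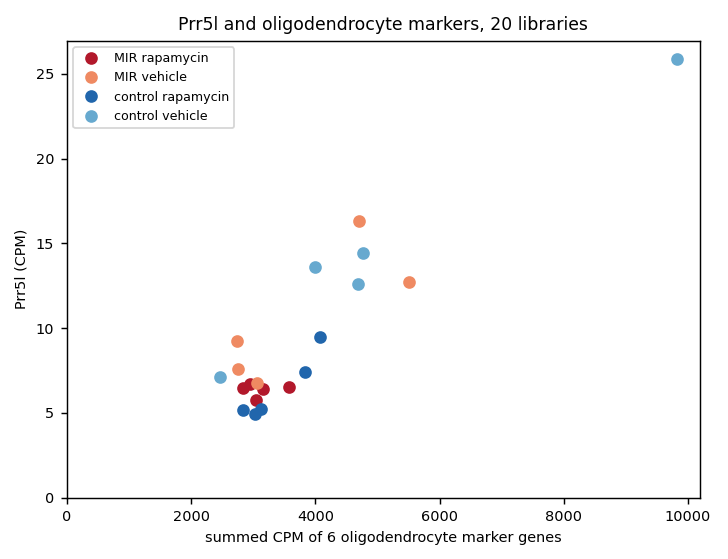
Prr5l (CPM, vertical axis) against the summed CPM of 6 oligodendrocyte marker genes (horizontal axis) in each of the 20 libraries, coloured by group. The control vehicle library at 9820 CPM of markers has the highest Prr5l, 25.9 CPM, and MIR rapamycin libraries lie together at 5.74 to 6.70 CPM.

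Wdr24, a subunit of GATOR2, which promotes complex 1 activity, was 36.8, 24.9, 27.6, 25 and 28.2 CPM in control rapamycin libraries, against 20.5, 20.0, 23.6, 21.1 and 22.7 CPM in control vehicle libraries, without overlap. It rose by 0.40 ± 0.09 on the log2 scale (adjusted p = 0.0204), below the size limit for a call. In MIR rapamycin libraries it was 25.3, 24.6, 26.4, 26.9 and 23.3 CPM, against 21.4, 23.8, 21.5, 23.1 and 23.4 CPM in MIR vehicle libraries, which overlapped. Averaged over both kinds of offspring it rose by 0.28 ± 0.07 (adjusted p = 0.0299). The highest value was that of control rapamycin 1, and without control vehicle 1 and that library the rise in control offspring was 0.27 (adjusted p = 0.039). Without control vehicle 1, 2 and 3 it did not pass in control offspring, where 0 members did. With covariates for striatal, cerebellar and choroid plexus markers its rise there was 0.22. Sesn2, a leucine sensor, averaged 14.0 ± 1.77 CPM in control rapamycin libraries and 11.4 ± 0.87 CPM in control vehicle libraries (SD, n = 5 each). It rose by 0.30 (adjusted p = 0.0464, edgeR), which was 0.20 (adjusted p = 0.12) without control vehicle 1 and control rapamycin 1.

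Grb10, an adaptor that dampens insulin receptor signalling, was 33.8, 35.7, 39.1, 34.7 and 33.4 CPM in control rapamycin libraries, against 48.8, 39.9, 46.1, 44.4 and 45.5 CPM in control vehicle libraries. The groups did not overlap, and Grb10 fell by 0.35 ± 0.10 on the log2 scale (adjusted p = 0.0371), which became -0.30 (adjusted p = 0.092) without control vehicle 1 and control rapamycin 1. In MIR offspring it was 39.1, 40.8, 36.2, 35.8 and 41.1 CPM under rapamycin, against 29.6, 28.4, 36.9, 43.2 and 35.4 CPM under vehicle, with no call.

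**Figure D3:**
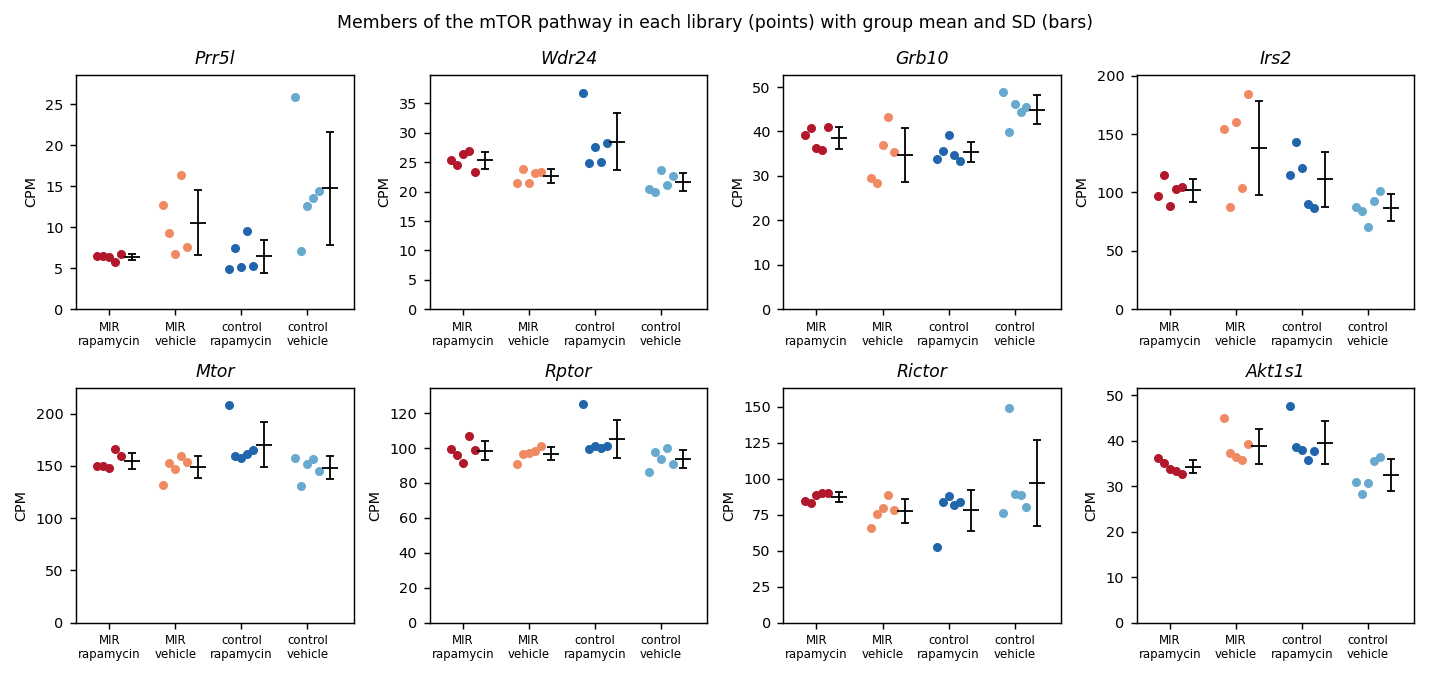
CPM of 8 members in each library, with the groups from left to right MIR rapamycin, MIR vehicle, control rapamycin and control vehicle, and the mean and SD of each group of 5 as bars. Prr5l averaged 6.36 CPM in the MIR rapamycin group against 10.5 CPM with vehicle, and 6.44 CPM in the control rapamycin group against 14.7 CPM with vehicle, while control rapamycin 1 is the highest point for Wdr24, Mtor, Rptor and Akt1s1 and the lowest for Rictor.

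Among MIR offspring the 3 members with the smallest p did not pass in the main fit. Akt2 did pass the adjusted p under an alternative, with log2 fold changes of -0.35 to -0.32 over the alternatives, below the size limit. Akt2, an insulin-responsive AKT kinase, was 52.8, 54.0, 44.3, 49.6 and 46.2 CPM in MIR rapamycin libraries, against 63.6, 66.0, 63.9, 58.0 and 60.0 CPM in MIR vehicle libraries (log2 fold change -0.34, adjusted p = 0.551, edgeR). Insr, the insulin receptor, was 91.5, 83.3, 89.5, 87.2 and 85.2 CPM, against 64.7, 68.5, 72.4, 80.8 and 77.7 CPM (0.26, adjusted p = 0.731). Eif4b was 269, 235, 261, 272 and 264 CPM, against 206, 213, 214, 241 and 246 CPM (0.22, adjusted p = 0.675). Akt2 and Insr did not overlap between the groups, nor did Prr5l, Tbc1d7 and Eef2k, 5 of 51 members against 2.78% of all genes. In control offspring 3 of 51 did not overlap, Wdr24, Sesn2 and Grb10, against 6.53% of all genes. Eef2k, the kinase that slows elongation, averaged 55.4 ± 3.66 CPM in MIR rapamycin and 42.7 ± 4.44 CPM in MIR vehicle libraries (SD, n = 5 each, log2 fold change 0.38), and did not pass with all 20 libraries but did without control vehicle 1, 2 and 3 and control rapamycin 1 (0.38, adjusted p = 0.0315, edgeR), libraries that enter through the shared estimate of the spread. Pik3r1, the regulatory subunit of PI3K, had the smallest p after Prr5l and Wdr24 in the average effect. It was 225, 234, 247, 249 and 244 CPM in MIR rapamycin and 190, 281, 297, 266 and 265 CPM in control rapamycin libraries, against 204, 232, 210, 215 and 210 CPM in MIR vehicle and 186, 199, 228, 231 and 225 CPM in control vehicle libraries (0.22, adjusted p = 0.0857). Without control vehicle 1 and control rapamycin 1 it passed (0.25, adjusted p = 0.00345), though below the size limit.

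**Figure D4:**
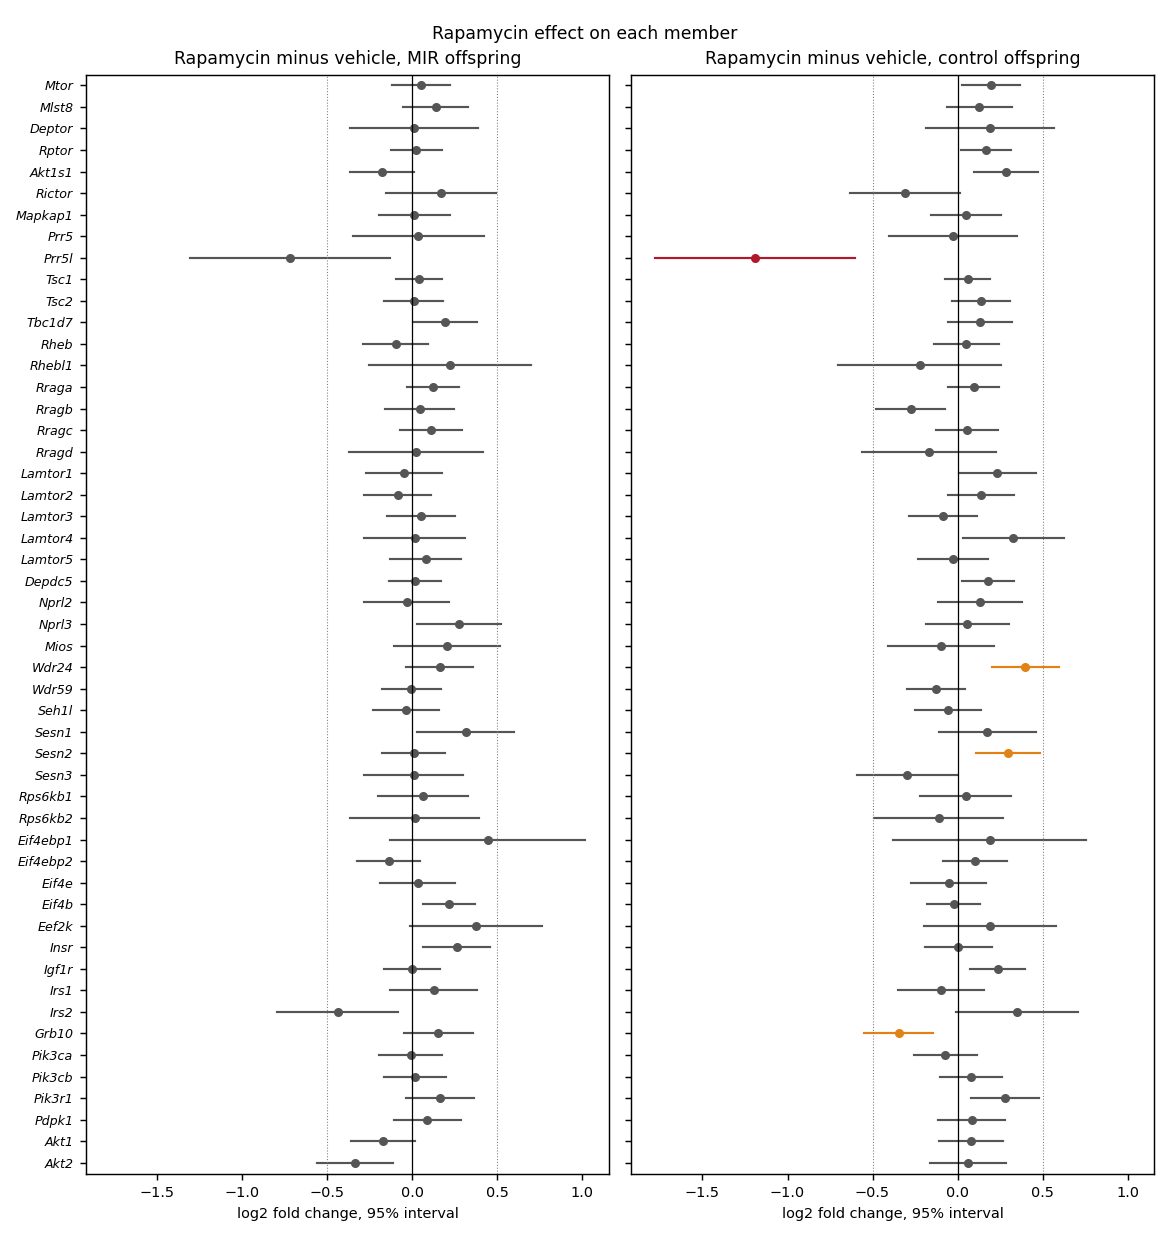
Log2 fold change of rapamycin over vehicle with its 95% interval for each of the 51 members, MIR offspring at left and control offspring at right, with dotted lines at -0.5 and 0.5. Prr5l in control offspring (red) was called, and Wdr24, Sesn2 and Grb10 (orange) passed the adjusted p alone.

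The core genes of the complexes did not pass under rapamycin. Mtor was 150, 150, 148, 166 and 159 CPM in MIR rapamycin libraries, against 132, 153, 147, 159 and 154 CPM in MIR vehicle libraries, and 208, 159, 157, 161 and 165 CPM in control rapamycin libraries, against 157, 131, 152, 156 and 145 CPM in control vehicle libraries. Its log2 fold change was 0.05 in MIR offspring (adjusted p = 1, edgeR) and 0.20 in control offspring (adjusted p = 0.127). Rptor was 99.6, 96.1, 91.7, 107 and 98.7 CPM in MIR rapamycin libraries, against 91.1, 96.8, 97.2, 98.4 and 101 CPM in MIR vehicle libraries, and 125, 99.4, 101, 100 and 101 CPM in control rapamycin libraries, against 86.4, 98.0, 93.8, 99.8 and 91.0 CPM in control vehicle libraries. Rictor was 84.2, 83.3, 88.3, 90.2 and 90.1 CPM, against 65.5, 75.6, 79.4, 88.7 and 78.3 CPM, in MIR offspring, and 52.8, 83.4, 88.1, 81.9 and 83.5 CPM, against 76.0, 149, 89.5, 88.9 and 80.0 CPM, in control offspring, where the extremes are the libraries set apart by base composition and by cerebellar markers.

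Tsc1, which with Tsc2 restrains Rheb, was 105, 107, 106, 120 and 117 CPM in MIR rapamycin, 102, 108, 115, 108 and 106 CPM in MIR vehicle, 129, 110, 113, 111 and 111 CPM in control rapamycin and 118, 107, 105, 111 and 109 CPM in control vehicle libraries. Tsc2 was 105, 109, 101, 106 and 106 CPM, 110, 104, 107, 101 and 101 CPM, 144, 104, 106, 110 and 96.1 CPM, and 96.5, 103, 101, 104 and 103 CPM in the same groups. Neither passed in any comparison, and their log2 fold changes lay between -0.09 and 0.14 in the 4 comparisons of 2 groups. The 95% interval of the rapamycin effect lay within 0.5 on the log2 scale on either side of 0 for 42 of 51 members in MIR offspring (82.4%, against 54.8% of all genes) and for 39 in control offspring (76.5%, against 42.9%).

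MIR against control offspring asked whether prenatal inflammation left a mark on the pathway's RNA. Under rapamycin 0 of 51 members were called by edgeR, as were 0% of all genes, and 6 members had an unadjusted p under 0.05 (11.8%, against 10.1%). By DESeq2 0 of 51 were called as well, against 0.508% of all genes. Under vehicle 0 of 51 were called, against 0.0982% of all genes, and with unadjusted p under 0.05 there were 6 members (11.8%, against 16.3%). Likelihood ratio and DESeq2 tests each called 1, Irs2 (1.96% of members), where the likelihood ratio test called 2.42% of all genes and DESeq2 2.26%. The average MIR effect called 0, against 0.606% of all genes, or 0.699% with no limit on size, and had 4 members with an unadjusted p under 0.05 (7.84%, against 13.2%). The interaction of rapamycin and MIR called 0, as it did of all genes (0%), with 9 members at an unadjusted p under 0.05 (17.6%, against 12.7%). DESeq2 called 0 members in both of these. Over all genes the alternatives called 0 to 63 in the interaction and 46 to 354 in the average MIR effect. The median log2 fold change of the members was -0.03 under rapamycin and -0.01 under vehicle, against 0.0022 and -0.02 for all genes.

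Irs2, an adaptor between the insulin receptor and PI3K, came nearest under vehicle. It lies at chr8:10984681-11008458 (mm10, minus strand), where 162 exon bases overlap 9530052E02Rik on the other strand. It was 154, 88.0, 160, 104 and 184 CPM in MIR vehicle libraries, against 87.2, 83.9, 70.7, 92.9 and 101 CPM in control vehicle libraries. Of the MIR libraries 4 lay above the highest control, 3 of them at 154 CPM or more, and 1 lay within the controls. The log2 fold change was 0.66 ± 0.17 (adjusted p = 0.0838, edgeR). Among vehicle libraries the summed level of 8 immediate early genes was highest in the 3 MIR libraries with 154 CPM or more of Irs2. It was 3200, 1740, 2790, 2040 and 2740 CPM in the same MIR vehicle libraries, against 439, 313, 963, 2170 and 2340 CPM in the control vehicle libraries, where those with striatal and cerebellar markers were lowest. Not every gene of the list followed the sum. Npas4 was 68.7 and 78.5 CPM in control vehicle 4 and 5, against 17.7 to 47.2 CPM in MIR vehicle libraries. With the score of these genes as a covariate the log2 fold change of Irs2 was 0.40 ± 0.19 (adjusted p = 0.817), and without control vehicle 1, 2 and 3 it was 0.51 (adjusted p = 0.698). Under rapamycin Irs2 was 97.0, 115, 88.7, 103 and 105 CPM in MIR libraries, against 115, 143, 121, 90.4 and 86.6 CPM in control libraries. Its interaction was -0.79 ± 0.24 (adjusted p = 0.318), or -0.49 with the immediate early covariate. Grb10, given above, had a log2 fold change of -0.37 under vehicle (adjusted p = 0.0845) and an interaction of 0.50 (adjusted p = 0.318). Its difference under vehicle passed the adjusted p under an alternative, with values of -0.42 to -0.30 over the alternatives, below the size limit.

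Akt1s1, the PRAS40 subunit of complex 1, was 36.2, 35.1, 33.7, 33.3 and 32.7 CPM in MIR rapamycin libraries, against 47.7, 38.6, 37.9, 35.8 and 37.6 CPM in control rapamycin libraries, and 45.0, 37.3, 36.3, 35.7 and 39.3 CPM in MIR vehicle libraries, against 30.9, 28.2, 30.7, 35.6 and 36.4 CPM in control vehicle libraries. Its log2 fold change was -0.21 under rapamycin (adjusted p = 0.443, edgeR) and 0.26 under vehicle (adjusted p = 0.168), with an interaction of -0.46 (adjusted p = 0.318). With covariates for striatal, cerebellar and choroid plexus markers the value under vehicle was 0.03. Under rapamycin the smallest p belonged to Lamtor1, a Ragulator anchor at the lysosome, which was 30.0, 32.3, 31.5, 27.1 and 28.0 CPM in MIR libraries, against 48.8, 31.5, 32.2, 34.9 and 34.5 CPM in control libraries (-0.29, adjusted p = 0.386), and -0.16 without control rapamycin 1. Akt1 was 139, 140, 132, 146 and 143 CPM, against 200, 146, 157, 157 and 154 CPM (-0.22, adjusted p = 0.429), and -0.13 without it. Eif4ebp2 was 23.8, 22.2, 24.2, 23.4 and 25.3 CPM, against 32.6, 30.1, 26.5, 26.0 and 22.1 CPM (-0.21, adjusted p = 0.438).

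In the average MIR effect Prr5, a complex 2 subunit related to Prr5l, had the smallest p. It was 5.17, 6.46, 4.28, 4.29 and 4.66 CPM in MIR rapamycin and 5.67, 4.97, 4.58, 4.37 and 4.67 CPM in MIR vehicle libraries, against 8.63, 4.89, 6.07, 5.50 and 6.28 CPM in control rapamycin and 9.19, 5.15, 4.63, 6.45 and 6.5 CPM in control vehicle libraries (-0.36, adjusted p = 0.235, edgeR), and -0.21 without control vehicle 1 and control rapamycin 1. Sesn1 was 63.2, 57.3, 67, 71.5 and 61.0 CPM in MIR rapamycin and 47.0, 58.9, 52.4, 48.2 and 51.1 CPM in MIR vehicle libraries, against 61.1, 63.1, 88.7, 66.6 and 71.9 CPM in control rapamycin and 42.4, 84.2, 65.7, 62.0 and 57.3 CPM in control vehicle libraries (-0.21, adjusted p = 0.367). Groups did not overlap for 1 of 51 members under rapamycin, Akt1, against 4.12% of all genes, and for 1 under vehicle, Akt2, against 3% of all genes. For Akt1 this held only before rounding, as MIR rapamycin 4 and control rapamycin 2 both rounded to 146 CPM.

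**Figure D5:**
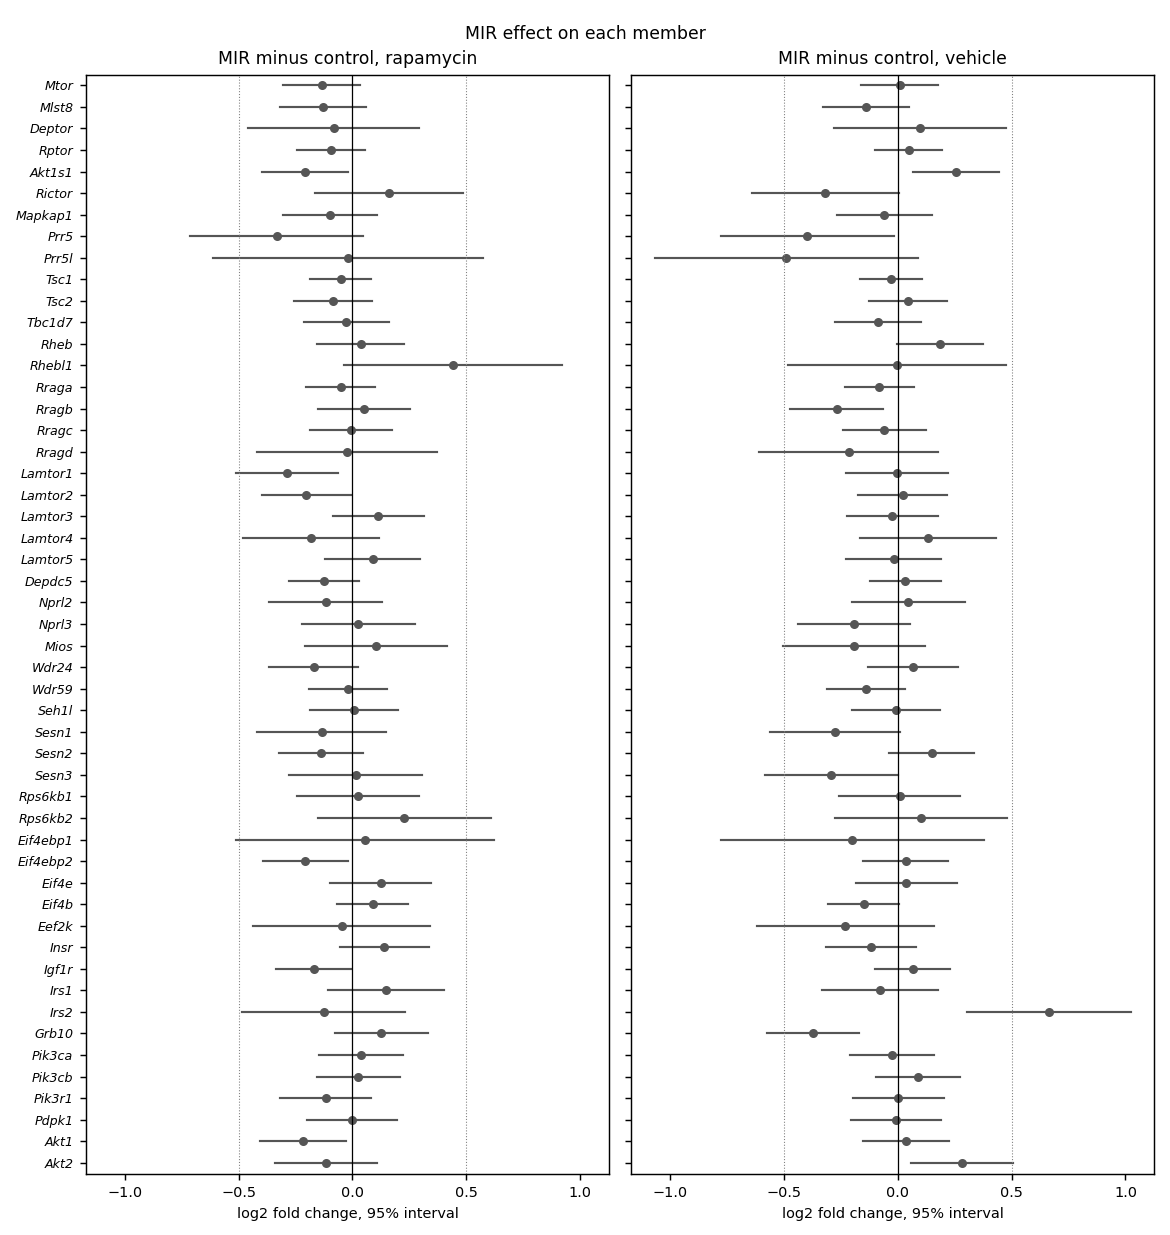
Log2 fold change of MIR over control with its 95% interval for each of the 51 members, rapamycin at left and vehicle at right, with dotted lines at -0.5 and 0.5. No member passed the adjusted p, and Irs2 under vehicle is the farthest to the right at 0.66.

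By role, the 4 complex 2 subunits all lay below 0 in MIR against control under vehicle, with a median of -0.36, and their summed level was 129 ± 9.69 CPM in MIR vehicle and 156 ± 23.0 CPM in control vehicle libraries (SD, n = 5 each). The highest sums were 193 CPM in control vehicle 2 and 162 CPM in control vehicle 1, and the other 3 control vehicle libraries held 141, 145 and 137 CPM, against 121 to 146 CPM in MIR vehicle libraries. Without control vehicle 1, 2 and 3 the median was -0.27, with Mapkap1 above 0 (0.02) and Rictor at -0.12. The 9 Rag and Ragulator genes summed to 404 ± 33.7 CPM in MIR vehicle and 438 ± 83.7 CPM in control vehicle libraries, where Rragd reached 249 CPM in control vehicle 1 and at most 122 CPM in the rest of that group. The 7 downstream kinases and translation factors summed to 501 ± 22.8 CPM in MIR rapamycin, 449 ± 21.3 CPM in MIR vehicle, 481 ± 15.6 CPM in control rapamycin and 477 ± 40.3 CPM in control vehicle libraries. Between the MIR groups most of the difference lay in Eif4b, at 260 CPM with rapamycin and 224 CPM with vehicle, and Eef2k, at 55.4 and 42.7 CPM. Eif4ebp2 was lower with rapamycin, at 23.8 against 26.2 CPM. These sums were not tested.

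Of 70 further pathway genes, chosen like the members with earlier results known, 65 were tested. In MIR offspring rapamycin called 0 of them. In control offspring it called 2 (3.08%, against 5.23% of all genes), Prkca higher and Inpp4b lower. Pik3r2, Gsk3a and Prkab2, all higher, passed the adjusted p alone, which made 5 that passed (7.69%, against 7.8% of all genes). Inpp4b, a lipid phosphatase, was 4.51, 6.56, 6.59, 8.56 and 7.16 CPM in control rapamycin libraries, against 25.5, 40.2, 12.5, 8.47 and 10.0 CPM in control vehicle libraries (log2 fold change -1.53, adjusted p = 0.0108, edgeR). Prkca, a protein kinase C, was 238, 260, 241, 232 and 263 CPM, against 135, 90.1, 202, 190 and 187 CPM (0.62, adjusted p = 0.0326). Both had their extreme values in control vehicle 1 and 2, the libraries with striatal and cerebellar markers, and without control vehicle 1, 2 and 3 neither was called, Inpp4b at -0.47 (adjusted p = 0.232) and Prkca at 0.39 (adjusted p = 0.231). Inpp4b was also the 1 gene called in the average rapamycin effect (-0.90, adjusted p = 0.0342, 1.54% against 1.42% of all genes), a call lost without those 3 libraries (-0.36, adjusted p = 0.104). No gene of the list was called in the other 4 comparisons in the main fit. Without control vehicle 1 and control rapamycin 1 the average MIR effect called Foxo1 and Inpp5d (3.03%, against 0.786% of all genes). With the oligodendrocyte covariate it called Inpp5d (1.54%, against 0.797%).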

How the data were processed

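Poly(A) RNA of 20 mouse cortex libraries was sequenced with a stranded kit. Per the labels and methods, the authors aligned reads to mm10 with STAR 2.4.0 and deposited raw counts per gene from HTSeq 0.6.1. The strand setting of HTSeq was not given in the sources used here, and 17 members overlap an exon on the opposite strand, 3 one on the same strand and 33 overlap none. Groups came from the sample labels.

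In R 4.3.3, genes were kept by filterByExpr (minimum count 10, minimum total 15), scaled by TMM and fitted with edgeR 4.0.16 quasi-likelihood on 4 group means over all 20 libraries. Depth of 17.8 to 24.5 M counts limits genes with few counts. Alternatives used DESeq2 1.42.0 and limma 3.58.1, other scaling, filters, covariates and left-out libraries. The method was tested on simulated data. GC content and coordinates came from GENCODE M21. Named are members called in any comparison, the 3 with the smallest p in each, and Mtor, Rptor, Rictor, Tsc1 and Tsc2. Members, lists and rules were chosen with earlier results of these data known. The oligodendrocyte and immediate early covariates, the GC table and the fits without control rapamycin 1 together with control vehicle libraries were added after seeing the data.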

Additional observations from a re-analysis of the deposited data

Results flagged for a closer look

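In each group of 5 libraries, a member was listed where its highest or lowest library stood apart from the next by more than 0.71 of the group's range. This held in 26 of 204 groups examined, 12.7%, where chance alone gives about 1 in 20. Control rapamycin 1 was high for Mtor at 208 CPM, Rptor at 125 CPM, Akt1s1 at 47.7 CPM, Tsc1 at 129 CPM, Lamtor1 at 48.8 CPM, Nprl2 at 35.5 CPM, Wdr24 at 36.8 CPM, Sesn2 at 17.1 CPM and Akt1 at 200 CPM, and low for Rictor at 52.8 CPM, Rraga at 69.5 CPM, Mios at 15.6 CPM, Sesn3 at 154 CPM and Pik3cb at 30.7 CPM. Control vehicle 1 was high for Mapkap1 at 51 CPM, Rragb at 76.8 CPM, Rragd at 249 CPM and Sesn3 at 387 CPM. Control vehicle 2 was high for Rictor at 149 CPM and Insr at 93.1 CPM. MIR vehicle 1 was low for Tbc1d7 at 7.58 CPM, Lamtor3 at 14.5 CPM and Lamtor5 at 11.7 CPM. The others were Tbc1d7 at 11 CPM in MIR rapamycin 2 (high), Nprl3 at 19.9 CPM in MIR vehicle 3 (high) and Pdpk1 at 187 CPM in MIR rapamycin 1 (low).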

How the results depend on the processing

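The number of members called stayed at 0 under every alternative run for rapamycin in MIR offspring, MIR under rapamycin, the interaction and the average MIR effect. In MIR against control under vehicle, called 0, DESeq2 and the likelihood ratio test gave 1, while calls over all genes numbered 17 by the quasi-likelihood test, 391 by DESeq2 and 419 by the likelihood ratio test, and leaving out single libraries gave 0 to 1 (1 without MIR vehicle 2, with 69 over all genes). For rapamycin in control offspring, called 1, the count was 4 with no limit on size (7.8% of all genes). It was 0 when only the groups compared were fitted (0.0784% of all genes), without control vehicle 1, 2 and 3 (0.2%), and without these and control rapamycin 1 (0.413%). It was also 0 with covariates for striatum, cerebellum and choroid plexus (0%), without control vehicle 1 and control rapamycin 1 (3.52%), and with the oligodendrocyte covariate (6.24%). For the average rapamycin effect, called 1, the count was 2 with no limit on size (2.48% of all genes), 0 at an adjusted p under 0.1 with a log2 fold change over 1, and 0 with the oligodendrocyte covariate (1.76%). Leaving out any single library kept both at 1. None of the 22 member values followed across the alternatives reversed direction. These were members called, passing the adjusted p or among the 3 with the smallest p in a comparison. Mapkap1, outside that set, went from below 0 to above 0 in MIR against control under vehicle without control vehicle 1, 2 and 3. Other named members were not followed in this way. The cause of these differences was not tested. With the replicate block the count was 1 for rapamycin in control offspring, 1 for the average rapamycin effect and 0 in the other 5, and it changed no call. Of the members that passed the adjusted p below the size limit, Sesn2 (adjusted p = 0.0705) and Grb10 (0.0646) in control offspring and Wdr24 on average (0.0587) no longer did with the block, by edgeR. Leaving out 1 library took Sesn2 up to 0.105, Grb10 up to 0.0767 and Wdr24 on average up to 0.0635. Same-number correlations across groups ran from -0.145 to 0.204, with 4 of 30 pairs over 0.1, so the numbers were not taken to pair the mice. Over all genes, calls for rapamycin in control offspring numbered 906, and 36 without control vehicle 1, 2 and 3.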
